A study of Mus musculus with 8 samples.

Results

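Nfkb2, Nfkbie and Icam1 encode a subunit, an inhibitor and a surface target of the transcription factor NF-kappaB. The 3 genes were followed in mesenchymal stem cells from mouse bones, either wildtype or with knockouts of the hyaluronan synthase genes. They were taken as the loci of the deposited gene table whose name is exactly Nfkb2, Nfkbie or Icam1. Each name stood on a single locus, so that the 3 genes are 3 of 76557 loci, 3 of 49868 loci with a gene name and 3 of 9916 named loci that passed a filter on low values. They were picked because their levels differed between the genotypes, so that this difference is described here without a test.

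The study compared mesenchymal stem cells (MSc) from the hind leg bones of wildtype mice (C57Bl6/J) with those of Has-tKO mice, which carry a constitutive knockout of Has1 and Has3 and an induced knockout of Has2. The Has enzymes make hyaluronan, a large sugar polymer of the matrix around cells. Cells of both genotypes, over 4 passages, received 4-hydroxytamoxifen (48 h in each of passages 2 and 3), the agent that induces the Has2 deletion, and were sampled on day 7 of osteogenic differentiation. Each of the 8 libraries, 4 per genotype, came from a separate mouse. The sources used here name neither the driver of the Cre recombinase nor the age of the mice, and do not say whether the wildtype cells carry Cre.

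NF-kappaB is a family of paired subunits that wait in the cytoplasm, bound by IkB proteins, until a signal from a receptor activates the IKK kinases. In the canonical route IKK marks IkB proteins for destruction and frees pairs of Rela and the Nfkb1 product. In the alternative route the kinase NIK leads to processing of the Nfkb2 product p100 to p52, which pairs with Relb. NF-kappaB induces several of its own brakes, among them p100, IkB proteins and the ubiquitin editor A20, and such genes serve as markers of its activity. In bone, the pathway is known for its part in the formation of osteoclasts and in inflammation.

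The stretches before the starts of the 3 genes show what NF-kappaB could bind there, and they are printed because the same motifs recur in other genes of the pathway below. The reference table (RefSeq, GRCm38.p6) gave 3 windows for Nfkb2, for 3 annotated starts, and a single window each for Nfkbie and Icam1, each reaching from 250 bases before the start to 50 bases after it. Capitals mark matches to the kB consensus, the general binding motif of NF-kappaB, or to the shorter motif GGANNTTCC, on either strand, and these 2 motifs can overlap. The excerpts lie on the + strand at chr19:46304678-46304736, chr19:46305449-46305478 and chr19:46305695-46305724 for Nfkb2, at chr17:45555574-45555652 for Nfkbie and at chr9:21015767-21015815 for Icam1.
Nfkb2, start 1: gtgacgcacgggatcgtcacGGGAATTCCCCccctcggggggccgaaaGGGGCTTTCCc
Nfkb2, start 2: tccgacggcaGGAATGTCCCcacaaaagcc
Nfkb2, start 3: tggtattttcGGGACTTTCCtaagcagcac
Nfkbie: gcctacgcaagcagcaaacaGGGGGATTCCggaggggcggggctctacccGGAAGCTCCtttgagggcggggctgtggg
Icam1: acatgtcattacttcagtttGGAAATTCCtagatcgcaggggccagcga

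All 3 windows of Nfkb2 held the kB consensus, as did the window of Nfkbie. In the first Nfkb2 window the matches lay from 39 bases before the start up to 2 bases before it. Of the 2 matches near the second start, the one that begins 10 bases after that start is the same stretch as the match 225 bases before the third start, because these windows overlap. The Nfkbie window held the kB consensus 106 to 97 bases before the start and GGANNTTCC 76 to 68 bases before it. The Icam1 window held GGANNTTCC 153 to 145 bases before the start and no match to the kB consensus, which says only that those letters are not in that window.

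For comparison, 8.46% of all 32851 promoter windows held the kB consensus and 4.26% held GGANNTTCC. The AP-1 type motif TGANTCA, present in 7.81% of windows, was found in the second Nfkb2 window and in the Nfkbie window but not in the Icam1 window. The windows of the 3 genes were also rich in G and C, at 58.0% to 68.0% against a median of 52.7% over all windows. A match describes the sequence and does not show that a factor was bound.

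**Figure D1:**
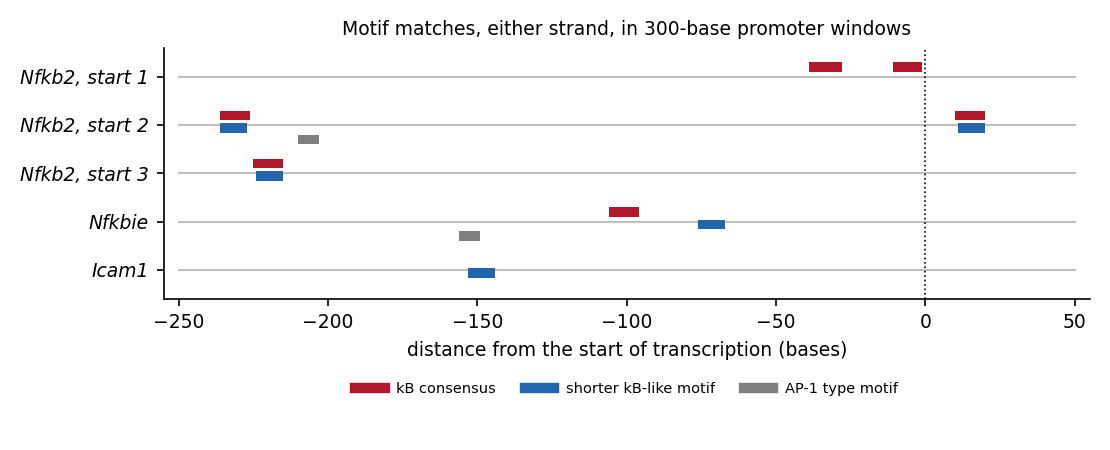
Positions of motif matches in the promoter windows of Nfkb2 (3 annotated starts), Nfkbie and Icam1, with the distance from the start of transcription in bases on the horizontal axis and blocks coloured by motif. The Nfkb2 and Nfkbie windows hold the kB consensus, and the Icam1 window holds only GGANNTTCC, from 153 bases before the start.

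The libraries differed in composition, and this bears on every level below. Levels are FPKM (sequenced fragments per length of transcript and per library total), whose sums were 198221 to 259871 per library. Wildtype 1 stood apart, where loci without a name took 61.5% of the FPKM, against 45.4% to 56.4% in the others. Its median-ratio size factor over 7435 named loci was 0.684 against 0.990 to 1.11. A single locus took 30.4% of the FPKM in wildtype 1, against 14.2% to 18.6% in the others. Has-tKO 4 came next in the share of loci without a name, at 56.4%, and had the highest FPKM sum. Values divided by these factors are called scaled and are given beside the unscaled ones. Over the 9916 tested genes the median log2 fold change was 0.16 unscaled and 0.01 scaled. Of the targeted genes only Has3 had a named locus, at 0.236 to 0.466 FPKM in the wildtype libraries and 0.150 to 0.663 FPKM in those labelled Has-tKO, and since the deleted part of the gene is not given, this does not check the labels. The stromal markers Runx2, Alpl, Ibsp, Pdgfra and Thy1 were present, while Col1a1, Sp7, Bglap and Spp1 were not analysed here.

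Nfkb2 encodes p100, the precursor of p52. Its level was 10.4, 13.9, 13.1 and 12.3 FPKM in wildtype 1 to 4 and 31.0, 26.1, 29.9 and 27.0 FPKM in Has-tKO 1 to 4. Every Has-tKO library lay above every wildtype library, with the lowest Has-tKO level 1.88 times the highest wildtype level. The means were 12.4 ± 1.51 FPKM (SD, n = 4) in wildtype and 28.5 ± 2.33 FPKM (SD, n = 4) in Has-tKO, a ratio of 2.30. On the log2(FPKM + 1) scale the difference was 1.14 (SE 0.15), and after scaling it was 0.95 (SE 0.11). Nfkb2 varied least among the 3 genes within Has-tKO, with a coefficient of variation of 8.18%.

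Nfkbie encodes IkB-epsilon, an inhibitor that holds NF-kappaB in the cytoplasm and that NF-kappaB induces in turn. It was listed at 4.17, 4.46, 5.16 and 4.29 FPKM in wildtype 1 to 4 and at 17.1, 10.7, 14.5 and 16.4 FPKM in Has-tKO 1 to 4. The wildtype libraries lay close together, and Has-tKO 2 was the lowest Has-tKO library while still 2.07 times the highest wildtype library. The means were 4.52 ± 0.444 FPKM (SD, n = 4) and 14.7 ± 2.87 FPKM (SD, n = 4), a ratio of 3.25 and the largest of the 3 genes. The log2 difference was 1.49 (SE 0.17), and 1.31 (SE 0.17) after scaling.

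Icam1 encodes an adhesion molecule of the cell surface that binds integrins of leukocytes. Its level was 8.62, 13.9, 14.4 and 11.7 FPKM in wildtype 1 to 4 and 44.1, 32.7, 32.5 and 32.3 FPKM in Has-tKO 1 to 4. Has-tKO 1 stood above the other Has-tKO libraries, which agreed closely, and the groups did not overlap. The means were 12.2 ± 2.62 FPKM (SD, n = 4) and 35.4 ± 5.81 FPKM (SD, n = 4), a ratio of 2.91. The log2 difference was 1.48 (SE 0.19), and 1.29 (SE 0.13) after scaling. Scaling drew the wildtype libraries of Icam1 together, to 11.9 to 13.7 FPKM, with a coefficient of variation of 5.97% against 21.6% unscaled.

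**Figure D2:**
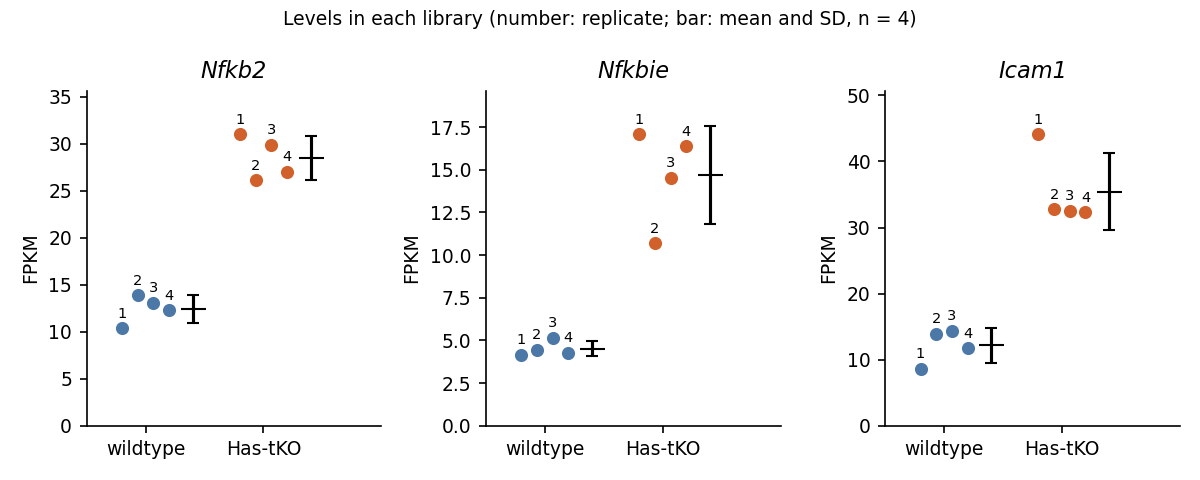
FPKM (vertical axes, from 0) of Nfkb2, Nfkbie and Icam1 in each wildtype and Has-tKO library, with points numbered by replicate and bars for the mean and SD (n = 4). In each panel the 4 Has-tKO points lie above the 4 wildtype points, and Has-tKO 1 is the highest.

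The 3 genes moved alike across libraries in part. Wildtype 1 was the lowest and Has-tKO 1 the highest library for each of them unscaled, whereas after scaling wildtype 1 became the highest wildtype library for Nfkb2 (15.2 FPKM) and Nfkbie (6.09 FPKM). The groups still did not overlap after scaling, with a lowest Has-tKO level 1.56 times the highest wildtype level for Nfkb2, 1.58 times for Nfkbie and 2.16 times for Icam1. Among the 9916 tested genes, 12.0% had all Has-tKO libraries above all wildtype libraries and 1.53% had them all below, and after scaling these shares were 7.18% and 5.76%. Ranked by log2 fold change from the highest down, Nfkbie stood at 22, Icam1 at 23 and Nfkb2 at 91 of 9916. When each library was left out in turn, the log2 difference stayed between 1.07 and 1.20 for Nfkb2, between 1.41 and 1.62 for Nfkbie and between 1.34 and 1.56 for Icam1. Without wildtype 1 it was 1.07, 1.46 and 1.34, in that order.

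Neighbouring genes bear on what a locus can hold, because the library type (Nextera tagmentation of double-stranded DNA) does not record the strand. In the RefSeq annotation of GRCm38.p6, the protein-coding gene Psd and the non-coding RNA 4833438C02Rik lie over or against Nfkb2. Psd had means of 0.698 (wildtype) and 1.59 FPKM (Has-tKO), and 4833438C02Rik had 0.664 and 1.36 FPKM, far below Nfkb2, and reads in a shared stretch cannot be told apart. Next to Nfkbie, Slc35b2 was listed at means of 34.7 (wildtype) and 30.4 FPKM (Has-tKO). Icam1 lies next to Icam4, which has no named locus in the table, and to Icam5, at means of 0.882 (wildtype) and 0.823 FPKM (Has-tKO), so whether the Icam1 locus also holds Icam4 reads is not known here.

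Among the NF-kappaB subunits, the partner of p52 moved with Nfkb2. Across all named genes, limma called 176 of 9916 genes changed (1.77%), 157 higher in Has-tKO (1.58%) and 19 lower (0.192%), at an adjusted p under 0.05 (Benjamini-Hochberg), and 1 of the other 4 subunits was among them. Relb rose from 6.06 ± 1.43 FPKM (SD, n = 4) to 13.9 ± 1.59 FPKM (SD, n = 4), with a log2 fold change of 1.09 (SE 0.18, limma adjusted p = 0.0179) and of 0.91 after scaling (limma adjusted p = 0.0100). Its libraries were 4.25, 7.38, 7.01 and 5.59 FPKM in wildtype 1 to 4 and 14.4, 11.5, 14.6 and 14.9 FPKM in Has-tKO 1 to 4, with no overlap. The Relb call was lost when Has-tKO 1 (adjusted p = 0.0853), Has-tKO 4 (adjusted p = 0.0528) or wildtype 4 (adjusted p = 0.0807) was left out of the limma fit.

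The canonical subunits had smaller log2 fold changes than Nfkb2 and Relb. Nfkb1, the precursor of p50, had means of 4.44 ± 1.21 and 7.80 ± 0.855 FPKM (SD, n = 4 each) and a log2 fold change of 0.72 (limma adjusted p = 0.0742), which passed only after scaling (0.55, limma adjusted p = 0.0343). Rela, the main activating subunit of the canonical route, had means of 16.1 ± 2.98 and 21.4 ± 1.54 FPKM and a log2 fold change of 0.40 (limma adjusted p = 0.240). Rel had means of 3.00 ± 1.19 and 4.16 ± 0.764 FPKM and a log2 fold change of 0.41 (limma adjusted p = 0.389). The wildtype and Has-tKO libraries overlapped for Rela and Rel.

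Ratios of 2 genes within a library are not touched by scaling between libraries and show the balance of the subunits. The FPKM ratio of Nfkb2 to Rela was 0.814, 0.841, 0.659 and 0.810 in wildtype 1 to 4 and 1.40, 1.32, 1.46 and 1.17 in Has-tKO 1 to 4. Rela thus had the higher length-scaled level in all wildtype libraries and Nfkb2 in all Has-tKO libraries, though loci of merged transcripts make a comparison of levels between genes approximate. The ratio of Nfkb2 to Relb, which was not planned, was 2.10 ± 0.276 (SD, n = 4) in wildtype and 2.07 ± 0.194 (SD, n = 4) in Has-tKO and overlapped. The ratio of Nfkb2 to Nfkb1, the other precursor gene, was 2.90 ± 0.524 in wildtype and 3.68 ± 0.334 in Has-tKO and overlapped too.

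The other 3 ratios to Rela, chosen after the values were seen, did not involve Nfkb2, Nfkbie or Icam1 and could be tested. Relb to Rela was 0.375 ± 0.0498 (SD, n = 4) in wildtype and 0.648 ± 0.0537 (SD, n = 4) in Has-tKO, with no overlap. A two-sided exact permutation test of its log2 ratio gave p = 0.0286, the smallest that 4 against 4 libraries allow, and 0.0857 after adjustment over 3 tests. Nfkb1 to Rela gave an exact permutation p of 0.0571 (0.0857 adjusted) and Rel to Rela 0.629. None of the 3 passed after adjustment. A single ratio at the smallest possible p could not pass after adjustment over 3 tests, however complete its separation, so no conclusion is drawn from this.

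**Figure D3:**
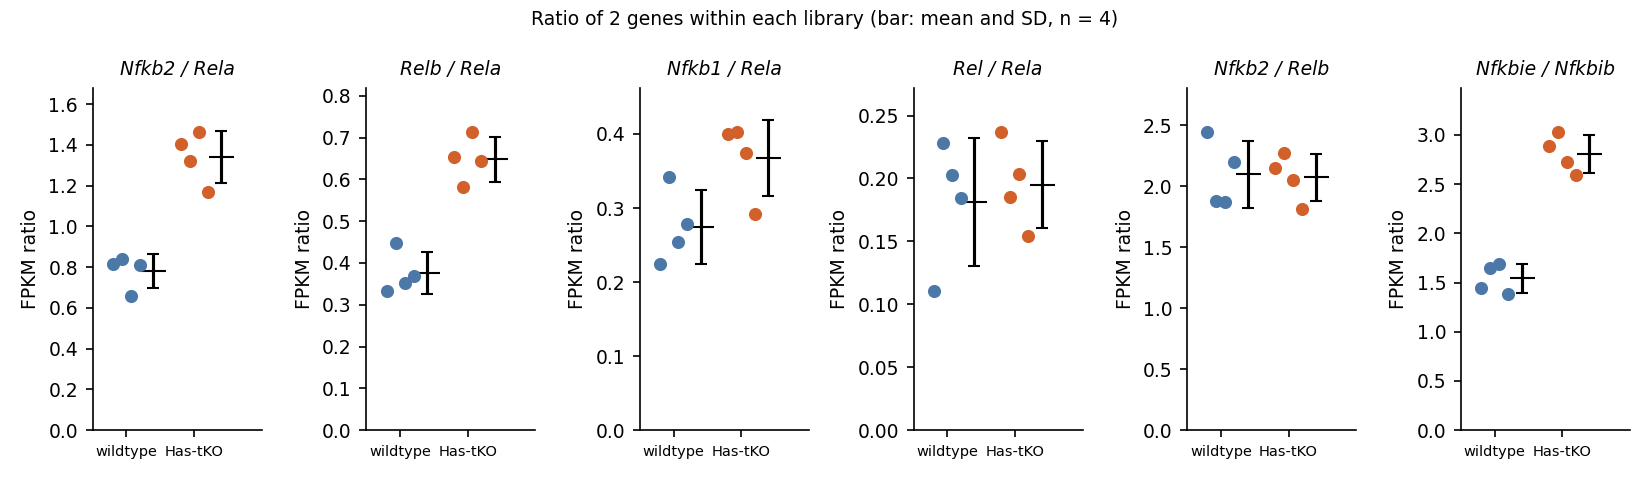
FPKM ratios of pairs of genes within each library (vertical axes, from 0), by genotype, with bars for the mean and SD (n = 4). Nfkb2 to Rela, Relb to Rela and Nfkbie to Nfkbib do not overlap between the genotypes, whereas Nfkb2 to Relb is 2.10 in wildtype and 2.07 in Has-tKO. Of the ratios shown, only Nfkb2 to Rela was planned.

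The other inhibitors that could be measured had smaller log2 fold changes than Nfkbie, a difference that was not tested. Neither of the other 2 tested genes of the IkB list passed the limma test unscaled, although both were higher at an unadjusted p under 0.05. Nfkbib, which encodes IkB-beta, had means of 2.94 ± 0.172 and 5.28 ± 1.24 FPKM (SD, n = 4 each) and a log2 fold change of 0.65 (limma adjusted p = 0.0789), or 0.48 after scaling (limma adjusted p = 0.203). Nfkbiz, a nuclear IkB protein, had means of 3.52 ± 0.819 and 6.64 ± 1.27 FPKM and a log2 fold change of 0.76 (limma adjusted p = 0.0611), and passed only after scaling (0.60, limma adjusted p = 0.0465). The ratio of Nfkbie to Nfkbib within a library was 1.39 to 1.69 in wildtype and 2.59 to 3.03 in Has-tKO. The ratio of Nfkb2 to Nfkbie went the other way, from 2.49 to 3.11 in wildtype to 1.65 to 2.44 in Has-tKO. Nfkbia, Nfkbid and Bcl3 were not analysed here, because no locus carries these names.

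Icam1 was set beside its family and its integrin partners. Of the 10 other tested genes of the adhesion list, 1 passed: Itgb2, the beta chain shared by the leukocyte integrins that bind Icam1, rose from 32.7 ± 11.1 to 66.0 ± 8.18 FPKM (SD, n = 4 each; log2 fold change 1.05, limma adjusted p = 0.0471). That call was weak, since it passed in 2 of the 8 limma fits that left out a library, with adjusted p from 0.0144 to 0.176. Itgam, an alpha chain that pairs with Itgb2, had a log2 fold change of 1.05 (limma adjusted p = 0.0942), and Itga4, an alpha chain whose integrins bind Vcam1, had 1.04 (limma adjusted p = 0.0550, and 0.0488 after scaling). Ezr, a linker of the membrane to actin, had 0.64 (limma adjusted p = 0.115). The ratio of Icam1 to Itgb2 was 0.314 to 0.435 in wildtype and 0.441 to 0.607 in Has-tKO, a narrow separation. Icam2, Madcam1, Sele and Selp were listed at or near 0, and Vcam1 was not analysed here.

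Of the ligands that signal to NF-kappaB, Tnf rose with the 3 genes. Tnf encodes tumour necrosis factor, a strong activator of the canonical route and itself a target of it. It was listed at 1.11, 2.75, 2.79 and 2.15 FPKM in wildtype 1 to 4 and at 11.1, 6.26, 7.35 and 9.19 FPKM in Has-tKO 1 to 4, with no overlap. The log2 fold change was 1.58 (SE 0.23, limma adjusted p = 0.0109), and 1.43 after scaling (limma adjusted p = 0.0095). The call was lost without Has-tKO 1 (adjusted p = 0.0541) or wildtype 4 (adjusted p = 0.0547) in the limma fit. The other 2 tested ligands did not pass: Tnfsf11 (RANKL) had a log2 fold change of -0.17 (limma adjusted p = 0.736) and Il18 had 0.20 (limma adjusted p = 0.609). Another 8 ligands, among them Il1a, Il1b and Ltb, lay below the filter.

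Of the 9 tested receptors, 1 passed. Tnfrsf12a, the receptor of the cytokine TWEAK, rose from 5.09 ± 1.65 to 12.8 ± 2.82 FPKM (SD, n = 4 each; log2 fold change 1.19, limma adjusted p = 0.0241, and 1.01 with 0.0198 after scaling). This call held in 4 of the 8 limma fits that left out a library and was lost without wildtype 4 or without Has-tKO 1, 2 or 3 (adjusted p from 0.0613 to 0.103). Cd14, a co-receptor for bacterial lipopolysaccharide, had 0.80 (limma adjusted p = 0.0509), Tnfrsf11a (RANK) had 0.70 (limma adjusted p = 0.156) and Il1rl1, the receptor of interleukin 33, had 0.80 (limma adjusted p = 0.317).

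None of the 24 tested kinases and adaptors between the receptors and IKK passed the limma test, unscaled or scaled. At an unadjusted p under 0.05, 9 were higher and 0 lower (8 and 0 scaled). Here and for the other lists, the share of all tested genes at that unadjusted p is not given, so such counts are a description. The 4 with the smallest p were Irak2, a kinase of the Toll-like and interleukin 1 receptors (log2 fold change 0.95, limma adjusted p = 0.0550), Traf1, an adaptor of tumour necrosis factor receptors (0.65, adjusted p = 0.0740), Malt1, a protease and scaffold (0.57, adjusted p = 0.0901), and Ikbke, an IKK-related kinase (0.56, adjusted p = 0.132). Malt1 reached 1 FPKM, the level of the filter, only in Has-tKO libraries. The median log2 fold change of the 24 genes was 0.38, against 0.16 over all tested genes. The IKK genes Chuk (0.51), Ikbkb (0.44) and Ikbkg (0.25), named after their values were seen, had limma adjusted p values of 0.284, 0.162 and 0.443. Map3k14, which encodes NIK, and its regulators Traf3, Birc2 and Birc3 were not analysed here.

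Of the 11 tested genes of the feedback list, 2 passed. Tnfaip3, which encodes A20, was listed at 0.807, 1.87, 2.10 and 1.46 FPKM in wildtype 1 to 4 and at 7.72, 4.09, 5.97 and 3.84 FPKM in Has-tKO 1 to 4, with no overlap. It rose by a log2 fold change of 1.31 (SE 0.23, limma adjusted p = 0.0203), and by 1.18 after scaling (limma adjusted p = 0.0198), and the call was lost without Has-tKO 1 (adjusted p = 0.0853) or wildtype 4 (adjusted p = 0.0807). Tnip1, a partner of A20, rose from 3.52 ± 0.277 to 6.63 ± 0.646 FPKM (SD, n = 4 each; log2 fold change 0.75, limma adjusted p = 0.0268), and did not pass after scaling (0.58, limma adjusted p = 0.0802). It passed in 3 of the 8 limma fits that left out a library, with adjusted p from 0.0142 to 0.132. Tnfaip8l2 had 0.57 (limma adjusted p = 0.0847) and Sqstm1 had 0.47 (limma adjusted p = 0.180).

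Other textbook targets of NF-kappaB gave the most calls, with 7 of 23 tested genes higher and none lower unscaled. Cxcl2, a chemokine that draws neutrophils, lay between 0.131 and 0.306 FPKM in wildtype and between 2.57 and 3.67 FPKM in Has-tKO (a log2 fold change of 1.72, limma adjusted p = 0.000635). It reached 1 FPKM, the level of the filter, only in Has-tKO libraries. Ccl2, a chemokine that draws monocytes, rose from 7.32 ± 2.53 to 42.5 ± 12.1 FPKM (SD, n = 4 each; log2 fold change 2.40, limma adjusted p = 0.00226). Both passed in all 8 limma fits that left out a library, though the filter was set once, on all 8 libraries. With a Has-tKO library left out, Cxcl2 reached 1 FPKM in fewer than 4 libraries and would not have passed a filter set anew. Ccl7, another monocyte chemokine, rose from 87.0 ± 18.3 to 204 ± 45.4 FPKM (log2 fold change 1.22, limma adjusted p = 0.0194) but did not pass after scaling (1.01, limma adjusted p = 0.0631), and Cxcl1 rose by 1.20 (limma adjusted p = 0.0244). Leaving out Has-tKO 1, Has-tKO 4 or wildtype 4 ended the calls of Ccl7 (adjusted p from 0.052 to 0.0914) and Cxcl1 (adjusted p from 0.0712 to 0.115), and leaving out wildtype 2 ended that of Cxcl1 too (adjusted p = 0.0623).

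The remaining 3 called targets, named after their values were seen, were Csf1, the growth factor of macrophages (0.83, limma adjusted p = 0.0485), Sod2, a mitochondrial antioxidant enzyme (0.99, adjusted p = 0.0404), and Cd83, a surface protein of activated immune cells (1.05, adjusted p = 0.0342). When a library was left out, 2 to 8 of the 23 targets passed. Not all targets lay on the side of the 3 genes: Mmp3 (-0.57), Mmp9 (-1.23), Mmp13 (-0.20), Ptx3 (-0.08) and Gadd45b (-0.05) had negative log2 fold changes, with limma adjusted p values from 0.131 to 0.933. Ccl20 was listed at 0 in all wildtype libraries and had a mean of 1.50 ± 0.689 FPKM (SD, n = 4) in Has-tKO, below the filter.

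Over the 8 lists without Nfkb2, Nfkbie and Icam1, 13 of 86 tested genes passed the limma test as higher and 0 as lower, which is 15.1% and 0 against 1.58% and 0.192% of all tested genes. At an unadjusted p under 0.05, 2 of the 86 were lower, both among the targets, and the share of all genes at that p is not given here. After scaling 14 passed as higher and 0 as lower, against 1.73% and 1.09% of all genes. All Has-tKO libraries lay above all wildtype libraries for 32 of the 86 (37.2%, against 12.0% of all genes). Among these 32, Cxcl2 and Malt1 reached 1 FPKM, the level of the filter, only in Has-tKO libraries. A rise of this kind was not particular to the pathway lists. Of 16 tested macrophage and other myeloid markers, described below, 3 passed as higher and 7 had all Has-tKO libraries above all wildtype libraries. Their median log2 fold change was 0.93, against medians of 0.20 to 0.71 for the 8 lists. Cd14 and Itgam stand in both a pathway list and the macrophage list. The calls depended on single libraries: over all genes, the 176 called by limma became 12 without Has-tKO 1 and 10 without wildtype 4.

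**Figure D4:**
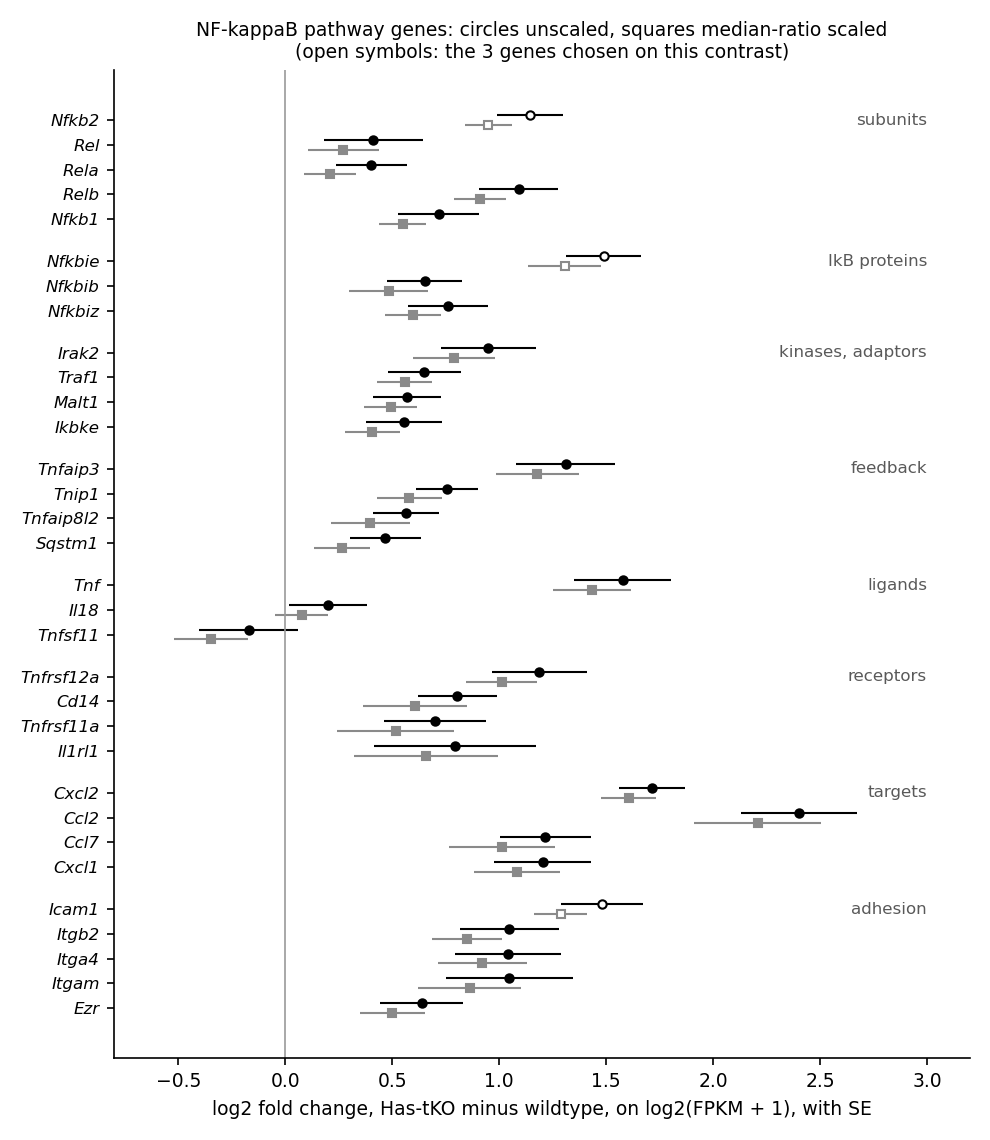
Log2 fold change with SE (horizontal axis, log2 of FPKM + 1, Has-tKO minus wildtype) of Nfkb2, Nfkbie and Icam1 (open symbols) and of named genes of 8 pathway lists, unscaled (circles) and scaled (squares). Nfkb2 and Relb lie near 1, Rela and Rel near 0.4, and the 3 chosen genes lie on the side of Tnf, Tnfaip3, Cxcl2 and Ccl2.

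The promoter motifs were looked up in the same lists, for the genes with a window in the reference table. Of 8 genes that passed as higher, 6 held the kB consensus (Csf1, Cxcl1, Cxcl2, Sod2, Tnfaip3 and Tnip1), and 5 held GGANNTTCC (Csf1, Cxcl1, Cxcl2, Tnf and Tnfaip3). Of 55 that did not pass, 14 held the kB consensus and 8 held GGANNTTCC, and over all 27025 genes with a window the shares were 9.55% and 4.86%. The lists were drawn from known targets, so these counts are a description. The other genes that passed as higher, Relb, Ccl2, Ccl7, Cd83 and Itgb2, had no window, so their motifs are unknown here. Nfkb1 had no window either. The excerpts of Tnf and Tnfaip3 are printed because these genes were among the genes with the profile most similar to that of Icam1, and Tnf shares with Icam1 the presence of GGANNTTCC and the lack of a kB consensus match in its window. They lie on the - strand, at chr17:35202191-35202239 for Tnf and chr10:19015411-19015555 for Tnfaip3 (GRCm38.p6), and capitals mark the same motifs as above.
Tnf: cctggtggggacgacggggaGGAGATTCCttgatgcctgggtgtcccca
Tnfaip3: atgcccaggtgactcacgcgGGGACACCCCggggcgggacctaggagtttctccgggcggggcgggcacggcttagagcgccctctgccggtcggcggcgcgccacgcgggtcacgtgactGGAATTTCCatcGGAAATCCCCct

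The profile of each of the 3 genes over the 8 libraries was compared with those of 9914 genes, by the root mean square (RMS) difference of log2(FPKM + 1) after each gene was centred on its own mean. For Nfkb2 the nearest were Arc (RMS 0.109), Relb (0.122) and Ifrd1 (0.125), with a median over all genes of 0.544. For Nfkbie they were Junb (0.156), a subunit of the AP-1 transcription factor, Gm43912 (0.193) and Tal1 (0.212), a transcription factor of blood cells. For Icam1 they were Tnf (0.150), Ereg (0.164), a ligand of the epidermal growth factor receptor, and Tnfaip3 (0.180). Icam1 was the fourth nearest gene to Nfkbie (0.214), while Nfkbie stood at 72 among the genes nearest to Nfkb2 (0.238). These genes were found by their likeness over 8 libraries that share their composition, so the likeness is a description. The promoter windows of Junb and Ifrd1 held neither the kB consensus nor GGANNTTCC, and Tal1 held the kB consensus in 1 of 2 windows. Arc, Relb, Gm43912 and Ereg had no promoter window. Arc (0.207 to 0.832 FPKM in wildtype) and Gm43912 (0 to 0.186 FPKM in wildtype) reached 1 FPKM, the level of the filter, only in Has-tKO libraries. At such levels the added 1 FPKM understates changes. The means of Arc differed 4.93-fold, against 2.30-fold for Nfkb2, and those of Gm43912 16.8-fold, against 3.25-fold for Nfkbie.

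Levels of 2 of the nearest genes are given to show what the likeness consists of. Junb was listed at 14.9, 14.8, 19.1 and 15.1 FPKM in wildtype 1 to 4 and at 40.8, 30.5, 38.2 and 51.8 FPKM in Has-tKO 1 to 4. Like Nfkbie, it had its lowest Has-tKO level in Has-tKO 2 and its highest wildtype level in wildtype 3. Ereg was listed at 0.355, 1.81, 1.79 and 1.04 FPKM in wildtype 1 to 4 and at 5.68, 4.70, 4.16 and 3.43 FPKM in Has-tKO 1 to 4. Like Icam1, it was lowest in wildtype 1 and highest in Has-tKO 1.

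A list of macrophage and other myeloid markers was also higher in Has-tKO on balance. The summed level of the 18 named markers, of 22 listed, was 396, 415, 664 and 391 FPKM in wildtype 1 to 4 and 1050, 787, 634 and 1025 FPKM in Has-tKO 1 to 4. The groups overlapped in this sum, because wildtype 3 lay above Has-tKO 3. Of 16 tested markers, 3 passed as higher by limma, and at an unadjusted limma p under 0.05 all 16 were higher and 0 lower. The share of all genes at that unadjusted p is not given here. The median log2 fold change was 0.93, against 0.16 over all tested genes. After scaling 1 passed, 13 were higher and 0 lower at an unadjusted limma p under 0.05, and the median was 0.76. In bulk RNA, more cells of a type and more RNA per cell cannot be told apart, and the part of these markers in the levels of Nfkb2, Nfkbie and Icam1 was not tested.

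Expressed as a share of the summed macrophage markers, the 3 genes separated to different degrees. The level of Nfkbie was 0.778% to 1.10% of the sum in wildtype and 1.36% to 2.29% in Has-tKO, with no overlap. Nfkb2 was 1.97% to 3.35% of the sum in wildtype and 2.64% to 4.72% in Has-tKO, and Icam1 was 2.16% to 3.35% and 3.15% to 5.14%, and both overlapped. Against Csf1r alone, the receptor that defines macrophages, the ratio of Nfkb2 was 0.176 to 0.330 in wildtype and 0.246 to 0.425 in Has-tKO. That of Nfkbie was 0.0692 to 0.133 and 0.127 to 0.206, and that of Icam1 was 0.192 to 0.294 and 0.294 to 0.462, so that all 3 overlapped, Icam1 only by its extremes.

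The spread within a genotype is given as the highest library over the lowest. In Has-tKO the sum differed 1.66-fold, Nfkbie 1.60-fold, Icam1 1.37-fold and Nfkb2 1.19-fold. In wildtype the sum differed 1.70-fold, Icam1 1.67-fold, Nfkb2 1.34-fold and Nfkbie 1.24-fold. Icam1 in wildtype and Nfkbie in Has-tKO thus had nearly the spread of the sum, and Nfkb2 had a smaller one in both genotypes. After scaling the wildtype values were 1.65-fold for the sum, 1.48-fold for Nfkbie, 1.22-fold for Nfkb2 and 1.16-fold for Icam1. Whether the genes follow the sum within a genotype was not tested.

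The libraries with the nearest macrophage sums depend on the scaling. Unscaled they were wildtype 3 and Has-tKO 3, where the sum was 0.955-fold in Has-tKO 3 and 7 of 16 tested markers were higher in wildtype 3. In that pair the unscaled level was 2.28-fold higher in Has-tKO 3 for Nfkb2, 2.81-fold for Nfkbie and 2.27-fold for Icam1. Scaled they were wildtype 1, the library that stood apart, and Has-tKO 3, with sums of 578.8 and 579.1 FPKM and 5 of 16 markers higher in wildtype 1. In that pair the scaled level was 1.80-fold higher in Has-tKO 3 for Nfkb2, 2.18-fold for Nfkbie and 2.36-fold for Icam1. Each pair sets a single library against a single library and carries no replicate check.

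**Figure D5:**
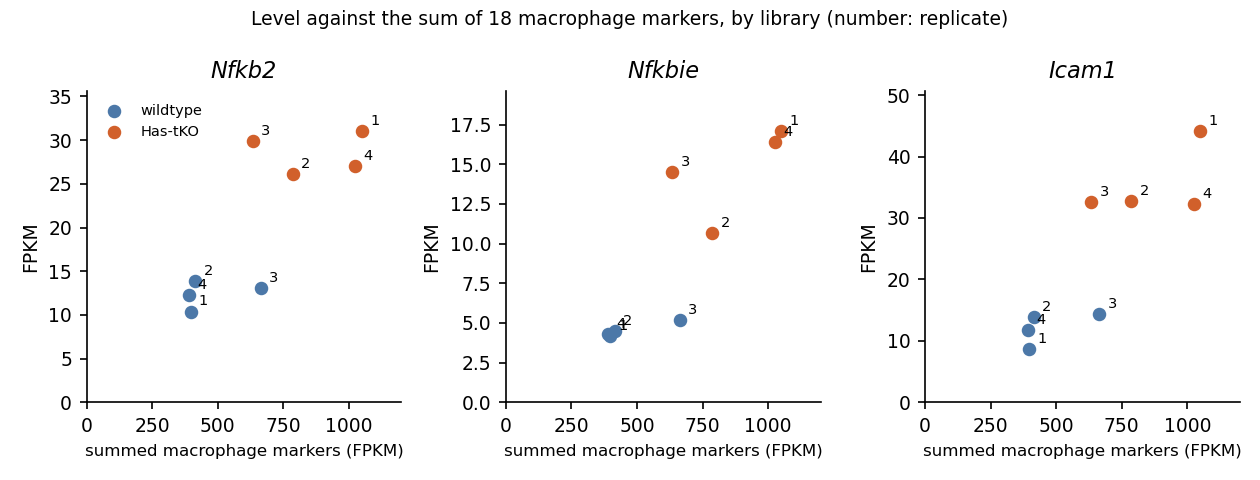
FPKM of Nfkb2, Nfkbie and Icam1 (vertical axes) against the summed FPKM of 18 macrophage markers (horizontal axis) in each library, numbered by replicate and coloured by genotype. Unscaled values are shown, in which wildtype 3 and Has-tKO 3 have nearly the same sum, 664 and 634 FPKM, and differ 2.27-fold to 2.81-fold in the 3 genes.

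Markers of T, B and NK cells, of neutrophils and mast cells and most endothelial markers were low, whereas stromal and osteoclast markers were present. All 11 T, B and NK cell markers lay below 1 FPKM in every library, with 6 at 0 throughout (Cd3e, Cd3d, Cd3g, Cd8a, Cd79b and Klrb1c). Of 9 neutrophil and mast cell markers 8 lay below 1 FPKM in every library, with S100a9, Ly6g, Elane and Cxcr2 at 0. Of 10 named endothelial markers 8 lay below 1 FPKM in every library. The sum of all 10 was 3.03 to 7.98 (wildtype) and 5.64 to 11.9 FPKM (Has-tKO). Much of it was Eng, which is also on the stromal list, at 1.48 to 6.61 (wildtype) and 3.83 to 9.43 FPKM (Has-tKO). The sum of 11 named stromal and osteoblast markers was 474 to 946 (wildtype) and 576 to 683 FPKM (Has-tKO), and that of 7 named osteoclast markers was 30.2 to 104 (wildtype) and 20.1 to 43.7 FPKM (Has-tKO). Unscaled, both sums overlapped between the genotypes. After scaling the stromal sum was 693 to 882 FPKM in the wildtype libraries and 533 to 618 FPKM in the Has-tKO libraries, with no overlap, while the osteoclast sum still overlapped. Of 10 tested stromal markers none passed the limma test unscaled (1 higher and 2 lower at an unadjusted p under 0.05) and 2 passed as lower after scaling, the osteoblast genes Alpl (-1.02, limma adjusted p = 0.0154) and Ibsp (-1.16, limma adjusted p = 0.0177), named after their values were seen. Their unscaled log2 fold changes were -0.82 (limma adjusted p = 0.0826) and -0.95 (limma adjusted p = 0.0718). The part of these markers in the levels of Nfkb2, Nfkbie and Icam1 was not tested.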

How the data were processed

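RNA sequencing of 8 libraries was analysed, 4 wildtype and 4 Has-tKO. The deposited values are FPKM per locus, made by the authors from 100 ng RNA after ribosomal RNA depletion and Nextera tagmentation, per the labels' protocols. Per the submitters' processing notes the tools included HISAT2, StringTie, DESeq2, fastp and bcl2fastq, and the builds named are hg38 and GRCm39. The sources used here give no versions, no reason for hg38 and no rule for joining transcripts into loci. Columns were matched to libraries by the names in the header. Values at low FPKM did not fall on whole multiples of a read (0.935% to 1.65% of low loci shared the most common ratio between 2 libraries, within 0.5%), so the depth is unknown and values carry no estimate of counting error.

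Nfkb2, Nfkbie and Icam1, the gene lists and the tests were chosen with earlier results of these data known. Tested were named loci that reached 1 FPKM in 4 or more libraries, as log2(FPKM + 1) with limma 3.58.1 in R 4.3.3 (empirical Bayes with intensity trend, two-sided, Benjamini-Hochberg over 9916 genes, threshold 0.05). The log2 scale with a pseudocount of 1 understates changes of low genes. Where 67 names stood on several loci, the locus with the highest mean was used. The 8 lists hold 139 genes, of which 115 have a named locus. Scaling used median-ratio size factors. The code was tested on simulated data. Named genes were the 3 genes, all genes of the subunit and IkB lists, the 4 tested genes with the smallest p of each other list, and the 3 most similar profiles per gene. Exceptions are stated. The planned ratios Nfkbie to Nfkbia and Icam1 to Vcam1 and a planned comparison of protein sequences were not made, for lack of a named locus or a reference sequence. The sources used here do not say whether replicate numbers pair the libraries. The correlation of deviations between libraries of the same number was -0.12 to 0.31 over 4 pairs. The highest between the genotypes was 0.34, for wildtype 1 and Has-tKO 4. These correlations cannot settle whether the libraries were paired, and the main fit treats them as unpaired. Alternatives were another pseudocount, no filter, no intensity trend, unnamed loci kept, scaling, a replicate block, leaving out each library, and leaving out wildtype 1 and Has-tKO 4 together.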

Additional observations from a re-analysis of the deposited data

Results flagged for a closer look

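Of 104 groups of 4 libraries tested for a library far from the others (Dixon's test, in which chance picks out about 1 in 20 groups), 7 had one. Icam1 in Has-tKO 1 was 44.1 FPKM against 32.7 FPKM in the next library, a gap of 0.961 of the group's range. Relb in Has-tKO 2 was 11.5 FPKM against 14.4 FPKM in the next library (0.868 of the range). Ifrd1, whose profile was close to that of Nfkb2, was 8.00 FPKM in Has-tKO 1 against 6.25 FPKM (0.830). Junb, nearest to Nfkbie, was 19.1 FPKM in wildtype 3 against 15.1 FPKM (0.939), and the summed macrophage markers were 664 FPKM in wildtype 3 against 415 FPKM (0.911). Tnip1 was 3.10 FPKM in wildtype 3 against 3.64 FPKM (0.940), and Cxcl2 was 0.131 FPKM in wildtype 4 against 0.295 FPKM (0.938).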

How the results depend on the processing

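The log2 differences of Nfkb2, Nfkbie and Icam1 kept their sign under every alternative run, and only that of Nfkb2 moved by more than the spread between replicates, from 1.14 to 0.95 after scaling. Counts of limma calls depended more on the settings. The 176 called genes became 280 after scaling (172 higher and 108 lower, against 157 and 19), 280 after scaling without wildtype 1 and Has-tKO 4, 358 without these 2 libraries unscaled, 111 with a pseudocount of 0.1 and 2 without a filter on low values. The adhesion list went from 1 to 2 after scaling, and to 0 with unnamed loci kept, after scaling without both libraries, without the filter, and with a pseudocount of 0.1 or 0.5. The feedback list went from 2 to 1 after scaling and 0 without the filter, the IkB list from 0 to 1 after scaling and also without both libraries (scaled or not), and the kinase list from 0 to 1 (scaled) or 2 (unscaled) without both libraries. The ligand and receptor lists went from 1 to 0 without the filter, and receptors to 2 without the intensity trend and without both libraries, scaled or not. Subunits went from 1 to 2 after scaling and without both libraries (scaled or not) and to 0 without the filter. Targets went from 7 to 4 with unnamed loci kept or a pseudocount of 0.1, and to 1 without the filter. The cause of these changes was not tested. Scaled fits without both libraries were added after seeing the data.

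With each library left out in turn, called genes ranged from 10 (without wildtype 4) to 349 (without wildtype 1), adhesion from 0 to 3, feedback from 0 to 3, IkB from 0 to 1, kinases from 0 to 1, ligands from 0 to 1, receptors from 0 to 2, subunits from 0 to 2 and targets from 2 to 8. With a replicate block, 147 genes passed, the feedback list had 1 call, the adhesion list 0 and the target list 8. Of the 8 target calls 7 were higher and 1, Mmp9, was lower (log2 fold change -1.23, limma adjusted p = 0.0304, against 0.131 without the block). Itgb2 stood at a limma adjusted p of 0.0560 and Tnip1 at 0.0616 with the block. Whether replicate numbers pair the libraries is not stated, and 2 of 8 libraries correlated best with their own number. Unknown depth and 4 libraries per genotype limit the precision.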
